A study of Mus musculus with 6 samples.

Results

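Aminoacyl-tRNA synthetases are the enzymes that join each amino acid to its transfer RNA, and their genes were examined in mouse Th9 cells with and without sorafenib. Members were chosen by gene symbol alone: a letter for the amino acid followed by "ars", with no ending or with l, 1 or 2, plus Farsa, Farsb, Eprs and Eprs1. Of 21233 genes in the count table, 37 matched, and all 37 passed the filter on low counts. Of these, 20 encode cytosolic enzymes and 17, with symbols ending in 2, encode mitochondrial enzymes. The data are RNA-seq gene counts from 3 control and 3 sorafenib-treated libraries of Th9 cells, CD4 T helper cells known for secreting interleukin 9. Sorafenib is a drug that blocks RAF kinases and receptor tyrosine kinases. Control cells had no sorafenib. The sources used here give no dose, duration, mouse strain, age, sex or vehicle.

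Cells keep a set of synthetases for protein synthesis in the cytosol and another, also encoded in the nucleus, for the few proteins made inside mitochondria. Several cytosolic enzymes sit together in the multisynthetase complex. Uncharged transfer RNA activates the kinase GCN2, which phosphorylates eIF2alpha and raises translation of the transcription factor ATF4. ATF4 is known to induce genes of amino acid synthesis and transport and many cytosolic synthetases, through C/EBP-ATF response elements (CARE).

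The promoters carry letters that fit the core of this element in some cytosolic synthetase genes. The search covered 250 bases before to 50 after each start in RefSeq promoters (build GRCm38.p6), on both strands, for TGATGNAA, the core of the CARE, and CACGTG, the E-box, with no overlap between the 2 motifs required or removed. RefSeq promoters were matched by symbol for 27 of the 37 genes. TGATGNAA was found in 5 of 13 cytosolic genes (Aars, Gars, Iars, Tars and Yars), 38.5% of their promoters, and in 0 of 14 mitochondrial genes. Among all 32851 RefSeq promoters 3.97% held it. CACGTG was found in 4 of 13 cytosolic genes (Aars, Farsb, Iars and Tars) and 1 of 14 mitochondrial genes (Ears2), against 7.15% of all promoters. A match is a run of letters and not a site shown to be bound.

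These 5 promoters are shown because they hold the motif, and that of Tars2, the mitochondrial threonine enzyme, because its transcript was called lower. Each runs 5′ to 3′ on the gene's strand from 120 bases before the start to 20 after, with matches to TGATGNAA, on either strand, in capitals.
Aars: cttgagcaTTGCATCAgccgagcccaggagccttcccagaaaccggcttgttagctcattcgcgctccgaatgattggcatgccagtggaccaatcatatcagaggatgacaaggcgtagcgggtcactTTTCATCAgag
Gars: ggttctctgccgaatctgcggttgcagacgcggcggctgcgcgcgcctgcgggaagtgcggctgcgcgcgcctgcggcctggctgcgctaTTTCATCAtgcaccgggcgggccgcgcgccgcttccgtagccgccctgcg
Iars: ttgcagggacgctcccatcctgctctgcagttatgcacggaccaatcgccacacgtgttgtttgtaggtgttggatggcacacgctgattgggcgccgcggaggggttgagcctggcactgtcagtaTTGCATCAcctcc
Tars: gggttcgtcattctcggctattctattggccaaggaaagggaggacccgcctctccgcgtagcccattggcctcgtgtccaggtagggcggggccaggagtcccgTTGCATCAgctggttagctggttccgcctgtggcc
Yars: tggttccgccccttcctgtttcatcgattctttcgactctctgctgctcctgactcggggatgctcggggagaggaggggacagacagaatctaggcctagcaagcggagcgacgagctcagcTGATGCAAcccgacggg
Tars2: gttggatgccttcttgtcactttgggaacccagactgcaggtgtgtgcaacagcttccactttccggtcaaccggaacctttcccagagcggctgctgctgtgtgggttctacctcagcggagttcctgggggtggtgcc
Their positions in GRCm38.p6 are chr8:111033722-111033861 on the plus strand for Aars, chr6:55037881-55038020 on the plus strand for Gars, chr13:49682010-49682149 on the plus strand for Iars, chr15:11399639-11399778 on the minus strand for Tars, chr4:129189783-129189922 on the plus strand for Yars and chr3:95754958-95755097 on the minus strand for Tars2. In Aars a match began 112 bases before the start and another 9 bases after it, in Gars 30 before, in Iars 7 after, in Tars 15 before and in Yars 3 after. The other 10 members, Nars among them, were not matched among the promoters.

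Library totals lay between 36981476 and 38126521 counts. By these totals alone, a floor of 3 counts was 0.0787 to 0.0811 CPM, and values of 0 were left as 0. CPM below are counts relative to library size, scaled by TMM to correct for differences in composition, and the scaling factors were 0.9218 in control 2 and 0.9926 to 1.033 in the other 5 libraries. Control 2 also stood farther from its group mean than the other libraries (root mean square log2 deviation 0.327, against 0.193 to 0.256), so results are given with and without it where it changes them. The defining T cell transcript Cd4 was present in every library at 434 to 508 CPM, as was Il9 at 177 to 283 CPM. Of the 7 Th9 and T cell markers 2 were higher (Il9 and Gata3) and 2 lower (Il2ra and Cd3e) with sorafenib, Cd3d and Irf4 were lower without overlap but did not pass, and the median log2 fold change was -0.22. Of 10 tested B cell markers 9 were higher and 1, Ebf1, lower with sorafenib. Their summed level, over 11 listed genes, was 55.3 to 81.7 CPM in control and 149 to 173 CPM in sorafenib libraries, with Ms4a1 near 0. Of 3 tested CD8 and NK markers 1 was higher (Cd8b1), with sums over 5 genes of 6.84 to 8.42 against 10.3 to 12.3 CPM. Cd8b1 made up most of that sum, at means of 6.37 and 9.40 CPM. Its partner Cd8a overlapped, at means of 0.38 and 0.43 CPM. Of 4 tested myeloid markers 1 was lower (Ly6g), with sums over 8 genes of 9.3 to 12.3 against 7.1 to 8.7 CPM and Csf1r at 0 in all controls. Ly6g had means of 3.39 and 0.03 CPM. Adgre1 (means 0.25 and 0.54 CPM, not called) and Itgam (0.11 and 0.33 CPM, not tested) were higher with sorafenib, without overlap. Cd68, most of that sum, overlapped at means of 6.7 and 6.5 CPM, and Itgax also overlapped. Of 4 tested stromal and endothelial markers 2 were lower (Pecam1 and Epcam), with sums over 6 genes of 53.8 to 57.1 against 28.0 to 29.8 CPM. Most of that sum was Pecam1, at means of 50.8 and 27.1 CPM. Col1a1 and Kdr overlapped and were not called (log2 fold changes 0.31 and -1.26), and Col1a2 and Cdh5 were near 0 in both groups. The part of these cell-type markers in the results on the synthetases was not tested. In bulk RNA, fewer cells of a type and less RNA per cell cannot be told apart. Whether the numbered replicates came from separate cultures or animals is not stated, and all p-values below refer to the spread between these 6 libraries, which may be technical.

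Transcript levels separated the compartments far more than sorafenib did. Levels are compared between genes as FPKM, which are scaled for gene length and column total but not by TMM. In control libraries the cytosolic genes had a median of 48.4 FPKM and the mitochondrial genes a median of 3.99 FPKM. The highest cytosolic level was that of Sars, the serine enzyme, at 160 ± 12.2 FPKM (SD, n = 3), followed by Gars at 108 ± 7.46 FPKM and Nars at 99.8 ± 6.66 FPKM. The lowest was Farsb, the beta subunit of the phenylalanine enzyme, at 14.3 ± 0.819 FPKM. Its partner subunit Farsa had 36.1 ± 1.12 FPKM. The order of these subunits rests on the gene lengths behind the FPKM, 6337 bases for Farsb and 1829 for Farsa. In CPM, which are not scaled for length, the control means were 93.1 for Farsb and 67.9 for Farsa.

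Among mitochondrial enzymes Lars2, for leucine, was the highest at 28.2 ± 8.94 FPKM in controls, and the next, Cars2 for cysteine, had 13.4 ± 0.925 FPKM. Every cytosolic control mean was therefore above every mitochondrial one except that of Lars2. Cars2 and Farsb, neighbours at that boundary, did not differ beyond their spread. The lowest levels were those of Nars2 at 1.42 ± 0.130, Fars2 at 1.23 ± 0.103 and Ears2 at 1.12 ± 0.0650 FPKM. The gene lengths behind these values were 15488, 12531 and 7593 bases, against a mitochondrial median of 3815. In control CPM, not scaled for length, Nars2 (mean 22.6) and Fars2 (15.9) lay above Pars2 (8.17), Sars2 (9.23) and Mars2 (9.93). The summed cytosolic level was 9.45, 10.1 and 10.8 times the summed mitochondrial level in the control libraries and 11.3, 9.01 and 10.02 times in the sorafenib libraries, and the groups overlapped. Without Lars2 it was 12.4, 14.9 and 13.2 times in the control and 15.5, 13.7 and 14.7 times in the sorafenib libraries, again with overlap.

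**Figure D1:**
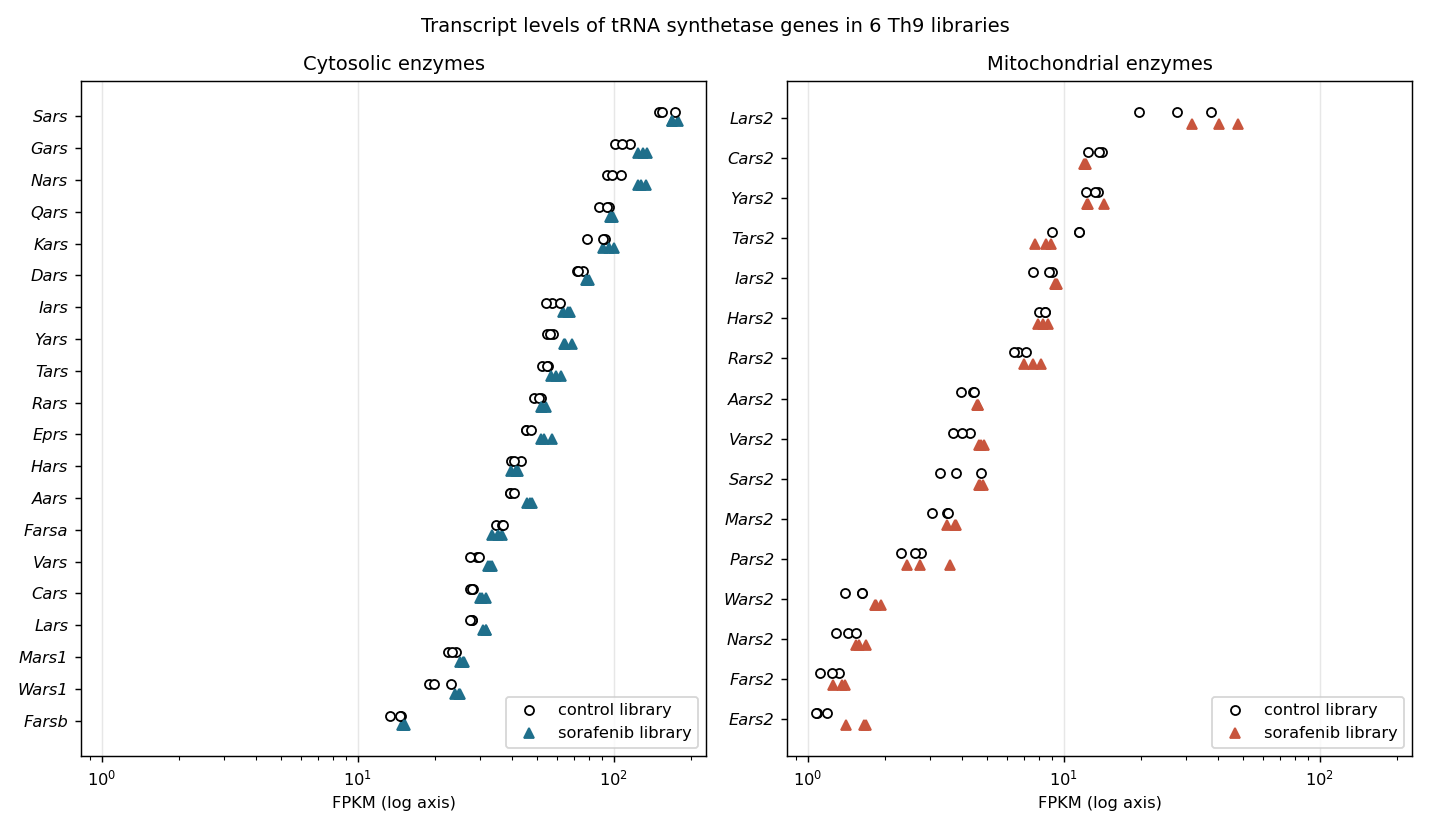
FPKM on a log axis for 20 cytosolic (left) and 16 mitochondrial (right) genes, ordered by control mean, with circles for the 3 control and triangles for the 3 sorafenib libraries. Cytosolic genes reach from Farsb near 14.3 to Sars near 160 FPKM in controls, while control means of mitochondrial genes other than Lars2 stay at or below 13.4 FPKM, with single libraries of Cars2 and Yars2 up to 14.4 FPKM.

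Few synthetase transcripts changed with sorafenib. By edgeR's quasi-likelihood test at a Benjamini-Hochberg adjusted p under 0.05 over all tested genes, 3 of 37 were higher, among them Nars and Ears2, and 1 was lower (Tars2). Among all 13255 tested genes 17.9% were called, 8.51% as higher and 9.43% as lower, and the 4 of 37 members do not exceed that background. The groups did not overlap for 9 of 37 members with sorafenib higher, against 18.3% of all tested genes, and for 2 with sorafenib lower, against 18.0%. The median log2 fold change, sorafenib minus control, was 0.06 over the cytosolic and 0.09 over the mitochondrial genes, beside -0.01 over all tested genes. Of the cytosolic genes 17 of 20 had a positive value, as did 13 of 17 mitochondrial genes and 6399 of 13255 tested genes. Cytosolic minus mitochondrial, the medians differed by -0.03, while the same difference varied with an SD of 0.107 between libraries of a group.

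**Figure D2:**
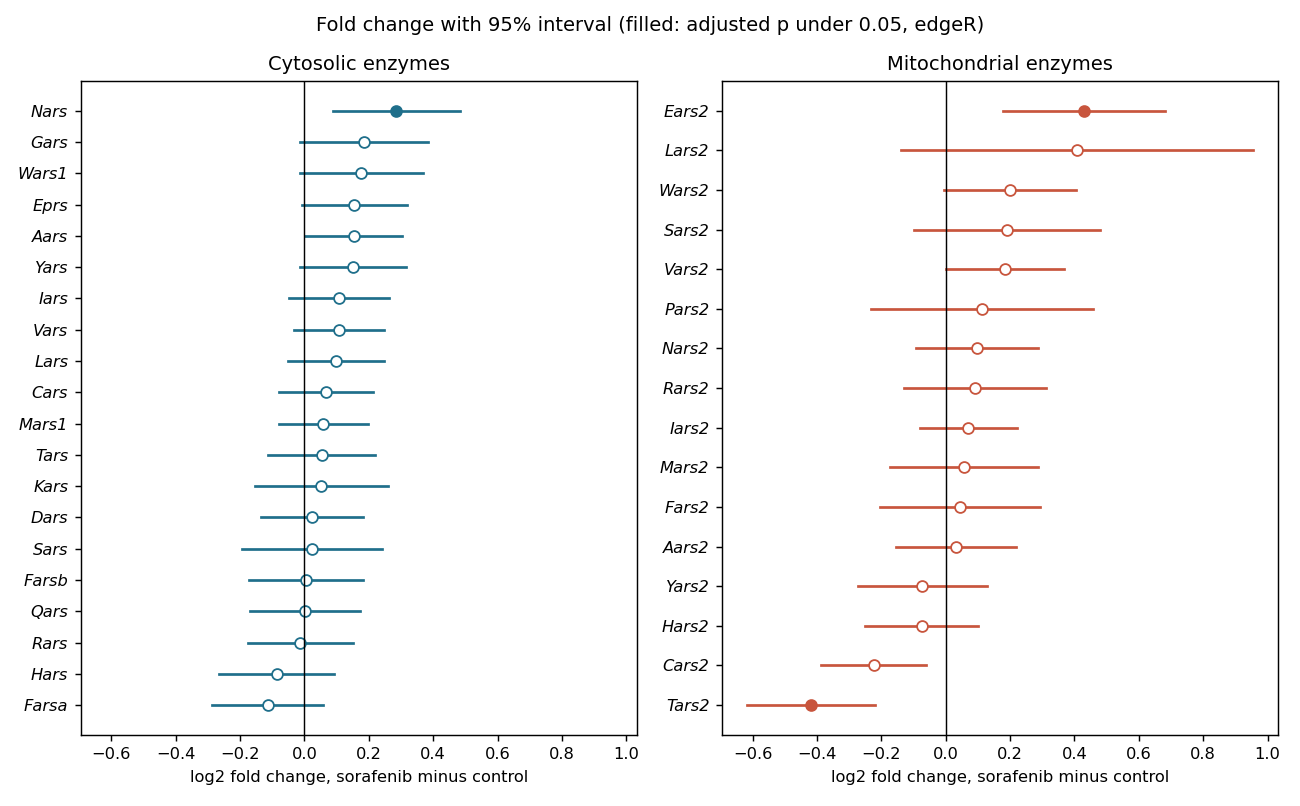
Log2 fold change, sorafenib minus control, of 20 cytosolic (left) and 16 mitochondrial (right) genes with the 95% confidence interval, filled where the adjusted p passed 0.05 in edgeR. Cytosolic values lie between -0.11 (Farsa) and 0.29 (Nars), the mitochondrial values shown between -0.42 (Tars2) and 0.43 (Ears2).

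Nars, which charges asparagine in the cytosol, was the only 1 of the 20 cytosolic members called. Its level was 243, 303 and 259 CPM in controls 1 to 3 and 341, 315 and 324 CPM in sorafenib libraries 1 to 3. All sorafenib libraries lay above all controls, with control 2 closest to them. The log2 fold change was 0.29 (SE 0.09, 1.22-fold, adjusted p = 0.0491), at the edge of the threshold. Without control 2 the log2 fold change was 0.38 with an adjusted p of 2.7e-05, while leaving out any of the other 5 libraries ended the call (adjusted p of 0.0891 to 0.191). Its mitochondrial counterpart Nars2 had 22.01, 21.6 and 24.1 CPM in controls and 24.0, 25.3 and 23.3 CPM with sorafenib, overlapping groups.

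Ears2, which charges glutamate in mitochondria, was higher. Its levels were 8.95, 8.91 and 8.21 CPM in controls and 10.5, 12.2 and 12.5 CPM with sorafenib, with no overlap. The log2 fold change was 0.43 (SE 0.11, 1.35-fold, adjusted p = 0.0243), lost without control 3 (adjusted p = 0.0902), sorafenib 2 (0.0898) or sorafenib 3 (0.13) and on the log2(FPKM + 1) scale (0.0893), but kept on that scale once genes with low FPKM were removed (0.0426). Cytosolic glutamate and proline are both charged by the fused enzyme Eprs. Eprs had 296, 324 and 315 CPM in controls and 368, 331 and 341 CPM with sorafenib. These groups did not overlap either, but the log2 fold change of 0.15 (SE 0.07, 1.11-fold) did not pass the test (adjusted p = 0.185).

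Tars2, which charges threonine in mitochondria, was the only member called lower. It had 54.0, 46.1 and 54.5 CPM in controls and 35.9, 40.7 and 39.1 CPM with sorafenib. Every sorafenib library lay below every control, and control 2 was the control nearest to them. The log2 fold change was -0.42 (SE 0.09, 1.34-fold lower, adjusted p = 0.00896), the smallest adjusted p among the 37 genes. Scaling by total counts alone gave -0.35 with an adjusted p of 0.0557, log2(FPKM + 1) an adjusted p of 0.166, and the call was also lost without control 3 (0.0534) or sorafenib 1 (0.0598). Cytosolic Tars had 137, 159 and 146 CPM in controls and 161, 152 and 146 CPM with sorafenib, with overlapping groups.

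**Figure D3:**
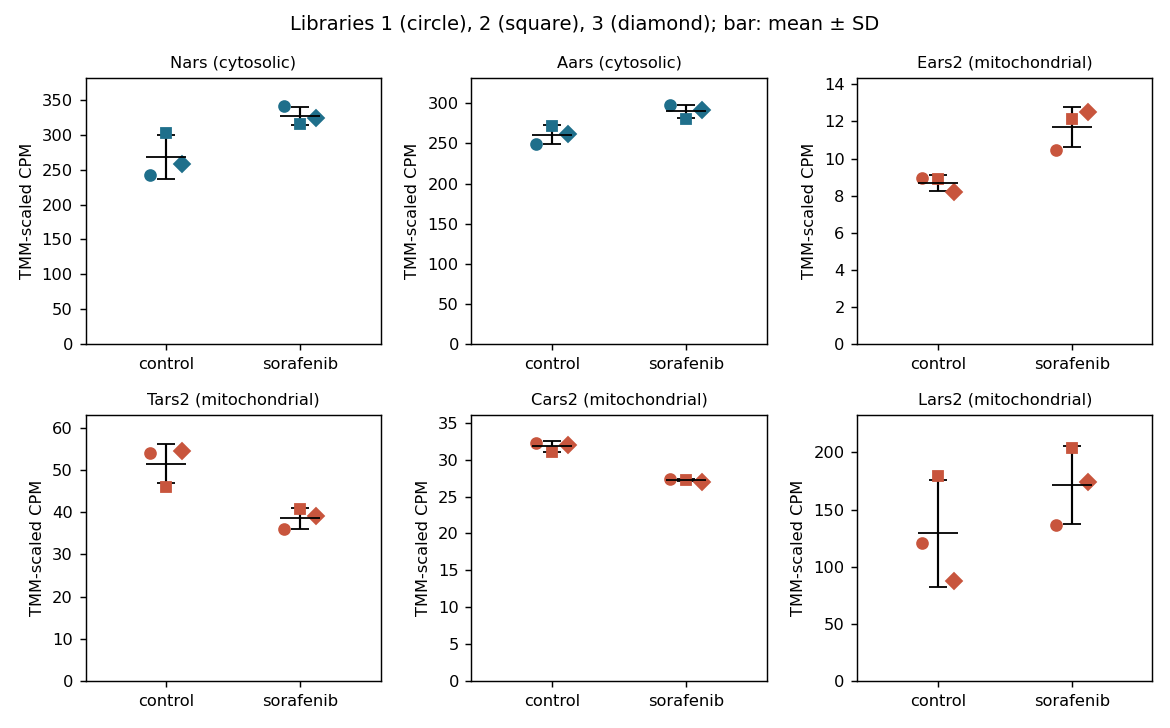
TMM-scaled CPM of Nars, Aars, Ears2, Tars2, Cars2 and Lars2 in each library (circle, square and diamond for replicates 1, 2 and 3), with mean and SD of 3 libraries, on axes that start at 0. Groups do not overlap for the first 5 genes and overlap for Lars2, whose controls reach from 87.4 to 180 CPM.

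Among the 33 members not called, the next smallest adjusted p was that of Cars2, the mitochondrial cysteine enzyme. It had 32.3, 31.0 and 32.1 CPM in controls and 27.4, 27.3 and 27.0 CPM with sorafenib, lower in every library, at a log2 fold change of -0.22 (SE 0.07, 1.17-fold lower, adjusted p = 0.0615). Without control 2 it passed the test. Vars2, for valine, had 19.1, 18.0 and 18.0 CPM in controls against 20.6, 21.3 and 20.8 CPM (log2 fold change 0.18, SE 0.08, 1.14-fold, adjusted p = 0.16). Wars2, for tryptophan, had 12.9, 12.2 and 13.1 CPM against 14.4, 15.1 and 14.4 CPM (log2 fold change 0.20, SE 0.09, 1.15-fold, adjusted p = 0.171). Both were without overlap, yet neither difference passed the test. Iars2, for isoleucine, also had groups that did not overlap, 52.7 to 57.0 against 57.9 to 58.4 CPM.

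Lars2 varied most from library to library. It had 121, 180 and 87.4 CPM in controls and 137, 204 and 174 CPM with sorafenib, with overlapping groups, at a log2 fold change of 0.41 whose 95% interval reached from -0.14 to 0.96 (adjusted p = 0.294). Gm26917, a non-coding gene known to collect ribosomal RNA reads and named here after its values were seen, had 90104, 84480 and 64410 counts in controls and 78450, 143548 and 129422 counts with sorafenib. Both genes were lowest in control 3, and both had their highest value in sorafenib 2. The order of the other libraries was not the same. Gm26917 was lower in sorafenib 1 than in control 1, while Lars2 was higher. The part of ribosomal RNA reads in the Lars2 level was not tested. The remaining 9 mitochondrial enzymes (Aars2, Fars2, Hars2, Mars2, Nars2, Pars2, Rars2, Sars2 and Yars2) had overlapping groups and log2 fold changes from -0.07 (Hars2) to 0.19 (Sars2). For 13 of the 14 uncalled mitochondrial genes the 95% interval of the change lay within 1.5-fold in either direction, Lars2 being the exception.

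In the cytosolic set, Aars, which charges alanine, had 249, 272 and 262 CPM in controls and 297, 281 and 292 CPM with sorafenib, without overlap (log2 fold change 0.15, SE 0.07, 1.11-fold, adjusted p = 0.155). Wars1, for tryptophan, had 54.2, 62.1 and 67.1 CPM against 70.2, 66.8 and 70.4 CPM, with sorafenib 2 just below control 3 (log2 fold change 0.18, SE 0.09, 1.13-fold, adjusted p = 0.193). Vars, for valine, had groups that did not overlap, 239 to 246 against 258 to 265 CPM (adjusted p = 0.282). Aars, Eprs, Nars and Vars were thus the 4 of 20 cytosolic genes without overlap, all with sorafenib higher. Of all tested genes 18.3% were higher without overlap, so this count is near the background.

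Gars and Kars each supply both compartments from 1 gene, for glycine and lysine. Gars had 239, 301 and 261 CPM in controls and 318, 288 and 303 CPM with sorafenib, and only control 2 reached into the sorafenib range (adjusted p = 0.196). Kars had 183, 234 and 215 CPM against 230, 206 and 219 CPM (adjusted p = 0.759). The subunits of the phenylalanine enzyme likewise had overlapping groups, Farsa at 63.1, 72.7 and 67.8 against 65.6, 59.5 and 63.0 CPM (adjusted p = 0.362) and Farsb at 83.8, 102 and 93.9 against 92.4, 94.3 and 93.5 CPM (adjusted p = 0.979).

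The 95% interval lay within 1.5-fold for all 19 uncalled cytosolic genes, reaching furthest up for Gars (0.38 on the log2 scale) and furthest down for Farsa (-0.29). Of the 8 enzymes of the multisynthetase complex (Dars, Eprs, Iars, Kars, Lars, Mars1, Qars and Rars), 0 were called by edgeR, by DESeq2 or by limma-voom, and 0 had an unadjusted p under 0.05, with a median log2 fold change of 0.06. Of the other 12 cytosolic enzymes 1 was called, with a median of 0.09. Among all tested genes 17.9% were called by edgeR. The enzymes inside and outside the complex were not tested against each other. By the same 3 tools 0 of 20 cytosolic enzymes were lower, and 0 had an unadjusted p under 0.05 in that direction, where 16.0% of all tested genes did. With sorafenib higher 2 of 20 did (Nars and Aars), against 14.9%. The 5 cytosolic genes with TGATGNAA in their promoter (Aars, Gars, Iars, Tars and Yars) were not called in this fit.

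Scaling and a single control library changed the cytosolic count. Without control 2, whose median over the cytosolic genes was 0.11 above the control mean on the log2 scale, 6 of 20 were called higher (Aars, Eprs, Gars, Lars, Nars and Yars), against 15.0% of 13591 tested genes. In that fit 2 of 17 mitochondrial genes were higher and 2 lower (Cars2 and Tars2), where 16.8% of tested genes were lower. With total counts in place of TMM, which moved the median of all tested genes from -0.01 to 0.07, 5 cytosolic genes were higher (Aars, Eprs, Gars, Nars and Yars) against 11.3% of tested genes, and 0 members were lower against 6.23%. The log2(FPKM + 1) and log2(FPKM + 0.1) scales, which carry no TMM factor, each called 5 cytosolic genes higher (Aars, Eprs, Lars, Nars and Yars) where they called 4.87% and 4.81% of all 21233 genes. With genes under a mean of 0.5 FPKM removed the count was again 5 (Aars, Eprs, Gars, Nars and Yars), against 12.8%. The largest cytosolic change in each of these fits was that of Nars. Its log2 fold change was 0.38 without control 2, 0.37 with total counts and 0.36 to 0.37 on the FPKM scales, beside 0.29 (1.22-fold) in the main fit.

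**Figure D4:**
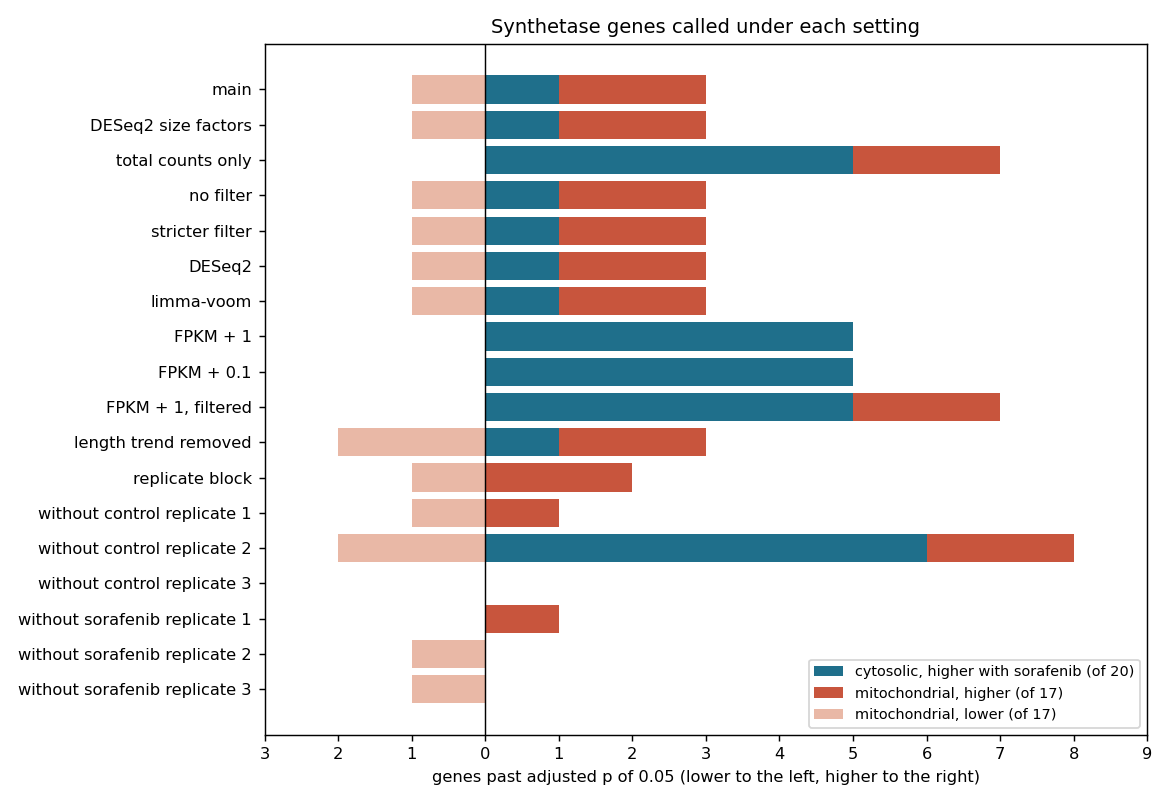
Number of synthetase genes past an adjusted p of 0.05 under each setting, with genes higher with sorafenib to the right (cytosolic and mitochondrial stacked) and mitochondrial genes lower with sorafenib to the left. The cytosolic count is 1 in the main fit, 5 with total counts or FPKM, 6 without control replicate 2 and 0 with the replicate block or without any other library.

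For 14 amino acids with a cytosolic and a mitochondrial gene of the same letter, the ratio of their FPKM within a library does not depend on the scaling. Sorafenib libraries had the higher mean ratio for 7 amino acids and the lower for 7. The threonine ratio, Tars over Tars2, was 4.57, 6.18 and 4.82 in controls and 8.04, 6.69 and 6.72 with sorafenib. The cysteine ratio, Cars over Cars2, was 1.99, 2.22 and 2.04 against 2.64, 2.47 and 2.54. In both, every sorafenib library was above every control. The alanine ratio, Aars over Aars2, also did not overlap but shifted by only 0.12 on the log2 scale. An exact two-sided permutation test of 3 against 3 libraries cannot go below p = 0.1, which 4 of the ratios reached, and their adjusted p over the 14 ratios was 0.35. The asparagine ratio, Nars over Nars2, overlapped, with 65.5, 83.2 and 63.7 against 84.4, 74.0 and 82.8.

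Genes that work beside the synthetases were read against the same background, 17.9% of all tested genes called. Of the 3 scaffold genes of the multisynthetase complex 0 passed in edgeR, DESeq2 or limma-voom, and 1, Aimp2, had an unadjusted p under 0.05. Aimp2 had 81.5, 108 and 92.7 CPM in controls and 79.8, 79.0 and 78.5 CPM with sorafenib (adjusted p = 0.103), and Aimp1 overlapped (adjusted p = 0.795). Of 4 genes that complete charging in mitochondria 0 passed by any of the 3 tools or at an unadjusted p under 0.05, among them Mtfmt, which formylates the initiator methionine (log2 fold change -0.13, adjusted p = 0.336), and Qrsl1, a subunit of the glutamine amidotransferase (0.21, adjusted p = 0.364). Of 5 cytosolic elongation factors 0 passed by those tools or unadjusted, with Eef1g at an adjusted p of 0.543 and Eef2 at 0.603. Without control 2, 2 of these 5 were called higher, where 15.0% of tested genes were. Of 10 mitochondrial translation factors 0 passed by those tools and 1, the release factor Mtrf1, had an unadjusted p under 0.05 (log2 fold change 0.48, adjusted p = 0.0961), followed by Tufm (adjusted p = 0.421). Of 8 synthetase relatives and editing factors 1 was higher, Tarsl2, a cytosolic threonine synthetase outside the symbol rule. Tarsl2 had 15.2, 17.8 and 14.8 CPM in controls and 20.2, 19.7 and 20.2 CPM with sorafenib, without overlap (1.26-fold, adjusted p = 0.039). Without control 2, 2 of these 8 were higher and 1 was lower, against 15.0% and 16.8% of tested genes. Of 5 genes of mitochondrial transcription 1 was higher, the ribosomal RNA methyltransferase Tfb1m (1.45-fold, adjusted p = 0.0179), and 1 lower, the transcription initiation factor Tfb2m (1.42-fold, adjusted p = 0.00449).

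Genes of amino acid synthesis and transport known as ATF4 targets rose while most synthetases were not called. Of 20 such genes 14 were higher and 0 lower by edgeR, with 0 lower also by DESeq2, by limma-voom and at an unadjusted p under 0.05, and their median log2 fold change was 0.39. The arginine and lysine transporter Slc7a3 rose 2.27-fold (adjusted p = 7.6e-05), the GATOR2 inhibitor Sesn2 1.64-fold (0.000216), the mitochondrial folate enzyme Aldh1l2 2.05-fold (0.000477) and the cysteine-making enzyme Cth 2.36-fold (0.000813). Of 17 genes of the eIF2alpha kinases and the ATF4 axis 5 were higher and 0 lower, with a median of 0.04. Of all tested genes 8.51% were called higher and 9.43% lower by edgeR. The other 12 genes of the axis were not called, among them Atf4 itself (log2 fold change -0.0032, adjusted p = 0.988), Ddit3, Atf3, Ppp1r15a and the GCN2 gene Eif2ak4. The transcription factors Atf5 (1.48-fold, adjusted p = 0.0038) and Cebpb (1.35-fold, 0.00658), the stress protein Nupr1 (1.62-fold, 0.00909) and the GCN2 inhibitor Impact (1.33-fold, 0.0125) passed. Without control 2 the counts were 17 higher and 0 lower in the first list and 7 higher and 2 lower in the second. In that fit 15.0% of tested genes were higher and 16.8% lower. Among RefSeq promoters TGATGNAA was found in 4 of 16 genes of the first list (Asns, Chac1, Pycr1 and Slc7a11) and 3 of 15 of the second (Atf3, Nupr1 and Trib3). Asns, Slc7a11, Nupr1 and Trib3 were called higher, while Chac1, Pycr1 and Atf3 were not called. Of promoters of genes called higher 3.02% held TGATGNAA, of genes called lower 2.02%, and of tested genes not called 2.24%. These gene lists were chosen with earlier results of these samples known, so their direction is no independent evidence.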

How the data were processed

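Sample titles placed 3 libraries of mouse Th9 cells in the control and 3 in the sorafenib group. Per the labels' protocols, RNA was purified with TRIzol and the sequencing libraries came from a VAHTS Universal V5 kit. Gene counts in whole numbers and FPKM values were deposited by the authors. The submitters' processing notes name fastp, HISAT2, HTSeq, R 3.2.0, DESeq2 and the build GRCm39. They leave the strand setting and the handling of multi-mapping reads unstated, which makes values of close relatives such as Tars and Tarsl2 uncertain. Each deposited FPKM value was the count divided by the column total and a gene length.

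The filter filterByExpr kept 13255 of 21233 genes. TMM-scaled counts were tested with the robust quasi-likelihood F test of edgeR 4.0.16 in R 4.3.3. Group was the sole term, which left 4 residual degrees of freedom, and p-values were adjusted by Benjamini-Hochberg across the genes that passed the filter, with 0.05 as the threshold. The common biological coefficient of variation was 10.9%. The test was tested on simulated data. The floor of 3 counts covers counting error only, while 95% intervals come from the fit and cover the spread between libraries. Alternatives were DESeq2 1.42.0 and its size factors, total counts, other filters, limma 3.58.1 (voom, and trend on log2(FPKM + 1) and log2(FPKM + 0.1)), a length trend, a replicate block, each library left out and a threshold of 0.01. After the data were seen, 3 were added: lists without control 2, the mitochondrial genes without Lars2, and the cytosolic genes without Gars and Kars.

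Members and lists were chosen with earlier results of these data known. Called members and the other enzyme of the same amino acid are given in every library, the 10 members with the smallest adjusted p with fold change and SE, Farsa, Farsb, Eprs, Gars and Kars whatever their result, and from each list the called genes lowest in adjusted p, 4 at most, or the 2 lowest where none was called. Results on 1 called member are not reported here. Promoter sequences are from RefSeq (GRCm38.p6) and no coordinates are given in the files' build.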

Additional observations from a re-analysis of the deposited data

How the results depend on the processing

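The number of genes called, 2378, stayed between 1606 and 3197 under the alternatives of scaling, filter, tool, unit and length, was 1227 at an adjusted p under 0.01, and was 1243 to 4325 with a library left out. Cytosolic genes called higher numbered 1, but 5 with total counts and in all 3 FPKM fits, 0 at an adjusted p under 0.01, and 0 to 6 with a library left out. Mitochondrial genes called higher numbered 2, but 0 with log2(FPKM + 1), 0 with log2(FPKM + 0.1), 0 at an adjusted p under 0.01, and 0 to 2 with a library left out. Mitochondrial genes called lower numbered 1, but 0 with total counts, 0 in all 3 FPKM fits, 2 with the length trend removed (Cars2 and Tars2), and 0 to 2 with a library left out. The cytosolic minus mitochondrial median, -0.03, turned to 0.0044 with log2(FPKM + 1), filtered or not, and was -0.0631 to 0.0269 with a library left out, all within the spread between libraries. It was 0.0034 without control 2 and 0.0269 without sorafenib 2, -0.02 without Lars2 and -0.03 without Gars and Kars. Of all calls 47.4% were higher with TMM and 64.4% with total counts. Same-numbered libraries deviated from their group means with correlations of -0.06, 0.15 and 0.10, so the numbers were not taken as pairs. With the replicate number as a block the call of Nars was lost (adjusted p = 0.0703), so 0 cytosolic genes were called, 2139 genes in all, and 4 of 6 libraries correlated best with their own number. None of the 4 called members passed under every one of 17 alternatives, and 6 of 33 uncalled members passed under some (Aars, Cars2, Eprs, Gars, Lars and Yars). The causes of these changes were not tested.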
